A study of Mus musculus with 20 samples.

Results

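Oxymetholone, a synthetic anabolic androgen used against marrow failure, was compared in the livers of male d2-/- mice, which are Fancd2 mutants. Of the 18 libraries of the series in the count table, 14 came from mutants and enter the comparison, 8 with oxymetholone and 6 without. The 8 were 5 libraries of mutants given oxymetholone alone and 3 of mutants given metformin and oxymetholone, called the combination here. The 6 were 3 libraries of untreated mutants and 3 of mutants given metformin alone, a glucose-lowering drug. All these groups share the mutation, and livers were taken after 18 months of treatment, per the labels. The 4 libraries of untreated wild-type mice had no drug, and their values are given only for orientation. The counts of the 14 libraries were modelled with oxymetholone and metformin as 2 additive terms, and the oxymetholone term is reported. It asks what the androgen changed in a Fanconi liver, whether or not metformin was given too. Of the 20 labelled samples, 2 were not analysed here, and neither was Fancd2, so the genotype was not checked against its own gene.

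Androgens are steroid hormones. Steroid receptors are transcription factors of the nuclear receptor family, and several of them, the glucocorticoid receptor among them, bind the same DNA core site. In mice many hepatic genes for steroid and drug metabolism differ between males and females under the control of growth hormone and sex steroids. Fanconi anaemia is a disorder of DNA crosslink repair with failure of the bone marrow and a high risk of cancer, and anabolic androgens are given to raise blood counts.

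Total counts were 20.2 to 32.7 M in the libraries with oxymetholone and 21.2 to 29.8 M in those without. The share of counts in mitochondrial genes was 1.54 to 8.19% with oxymetholone, where the highest library was oxymetholone replicate 3, and 2.05 to 3.89% without. Hepatocyte marker genes, among them albumin and transthyretin, summed to 43600 to 88260 CPM (counts divided by library size after TMM scaling) with oxymetholone and to 36710 to 79720 CPM without. Counts of Y-linked genes exceeded those of Xist in 18 of 18 libraries, matching the labelled sex. Replicates of a group differed far more than counting error allows, since the chi-square of each pair was at least 73.5 times its degrees of freedom. The labels do not say that each library came from a separate animal, so p-values measure the spread between libraries.

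After oxymetholone 11 genes rose and 4 fell, of 15225 genes tested with edgeR's quasi-likelihood test at an adjusted p of 0.05. That is 0.0985% of the genes tested, 0.0722% higher and 0.0263% lower. Those that rose were Lncbate1, Rab38, Paqr8, BB123696, Catsperd, Gm10032, Gm10440, Xlr4c, E230001N04Rik, Gm45187 and Wif1. Those that fell were Tmem62, Tcf24, Ubr1 and Ppp1r42. An unadjusted p under 0.05 was reached by 585 genes, 3.84% of those tested, 334 higher and 251 lower. Over all tested genes the median log2 difference was -0.01 and 47.9% were higher. The TMM scaling centres the libraries on each other, so these values cannot show a shift of the whole table.

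All 11 genes that rose and 2 of the 4 that fell separated the libraries completely. In the whole table, 19 genes, or 0.125%, lay higher in each of the 8 libraries with oxymetholone than in any of the 6 without, and 4 genes, or 0.0263%, lay lower. The plot of CPM by library shows the called genes.

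**Figure D1:**
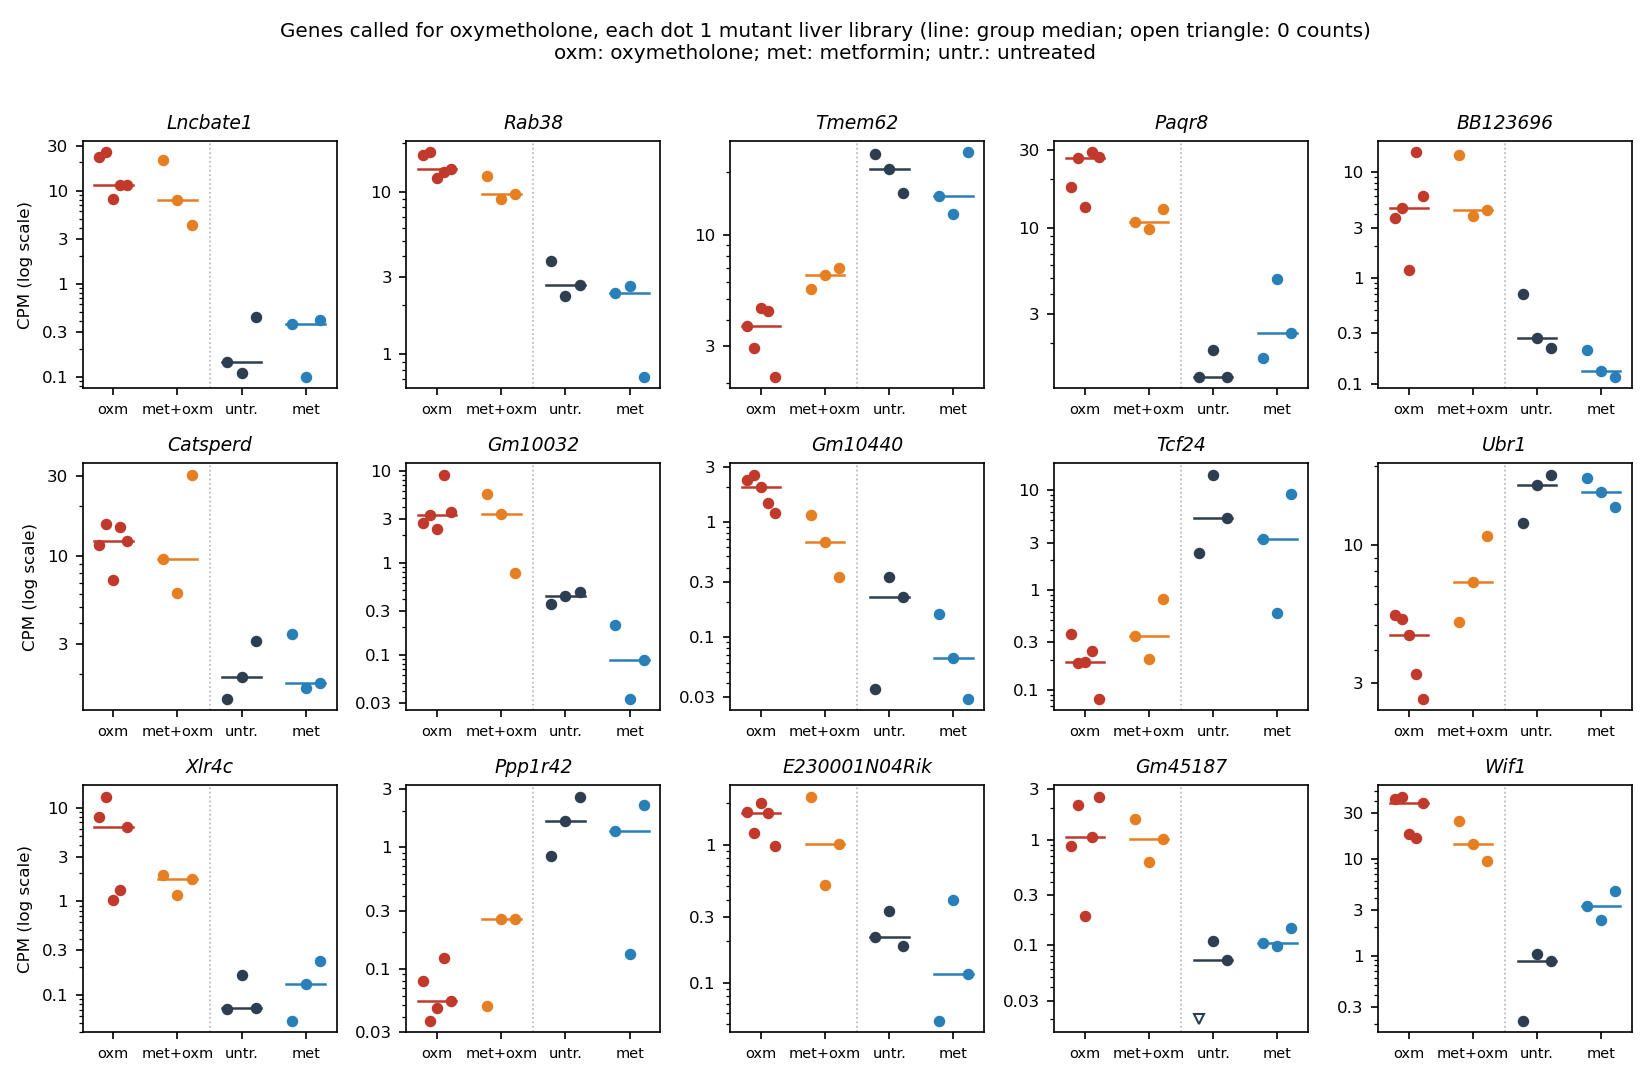
CPM on a log scale of the 15 genes called for the oxymetholone term, 1 dot per mutant liver library. From left to right the groups are oxymetholone (5 libraries), metformin with oxymetholone (3), untreated (3) and metformin (3), with a line at each group's median. Except in Tcf24 and Ppp1r42, the dots left of the dotted line do not overlap those to its right, and a library with 0 counts of Gm45187 is an open triangle.

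Promoter sequence was looked at for the steroid receptor core site, since the drug is an androgen. RefSeq promoters on build GRCm38.p6, taken from 250 bases before to 50 after a start, matched 9 of the 15 called genes and gave 11 windows. The core site, the letters AGAACA on either strand, was in 3 of the 11 windows, and 19% of 32851 mouse promoters of the same length hold it. An inverted repeat of the core site with 3 bases between, the full response element, was in 0 of the 11 windows and in 0.00913% of all promoters. The nuclear receptor core site AGGTCA was in 2 windows against 16.3% of all promoters, and the STAT5 site TTCNNNGAA was in 2 windows against 8.3%. The TATA box letters TATAAA were in 2 windows against 13.6%. These matches are descriptions of letters and not evidence of binding. The 3 windows with the steroid receptor core site belong to Paqr8, at chr1:20890298-20890597 and chr1:20917590-20917889 on the plus strand, and to BB123696, at chr13:52757156-52757455 on the minus strand. They are shown 5′ to 3′ with the core sites, in either orientation, in capitals.
Paqr8, first start: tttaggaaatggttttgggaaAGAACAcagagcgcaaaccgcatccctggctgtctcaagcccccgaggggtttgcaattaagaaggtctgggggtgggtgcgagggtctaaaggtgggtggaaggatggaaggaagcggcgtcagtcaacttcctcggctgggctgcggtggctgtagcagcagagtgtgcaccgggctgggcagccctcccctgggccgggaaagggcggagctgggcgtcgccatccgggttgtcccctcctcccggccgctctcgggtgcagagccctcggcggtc
Paqr8, second start: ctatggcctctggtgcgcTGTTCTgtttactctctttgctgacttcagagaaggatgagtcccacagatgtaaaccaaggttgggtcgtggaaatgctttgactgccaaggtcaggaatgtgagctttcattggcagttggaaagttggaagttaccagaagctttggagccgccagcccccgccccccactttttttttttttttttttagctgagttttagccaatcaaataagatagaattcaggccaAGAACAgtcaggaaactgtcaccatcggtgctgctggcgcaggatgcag
BB123696: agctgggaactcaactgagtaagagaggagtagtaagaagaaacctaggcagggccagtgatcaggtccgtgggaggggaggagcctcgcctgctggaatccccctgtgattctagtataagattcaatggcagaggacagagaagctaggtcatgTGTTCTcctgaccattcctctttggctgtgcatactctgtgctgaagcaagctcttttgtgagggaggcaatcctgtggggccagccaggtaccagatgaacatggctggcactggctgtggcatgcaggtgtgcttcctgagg

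Paqr8 was the called gene closest to steroid signalling. It encodes membrane progestin receptor beta, a receptor that is unrelated to the nuclear steroid receptors. Its level was 17.7, 26.9, 13.4, 28.9 and 27.0 CPM in the oxymetholone libraries and 10.9, 9.94 and 13.1 CPM in the combination libraries. In the libraries without the drug it was 1.24, 1.80 and 1.25 CPM in untreated and 1.63, 4.92 and 2.29 CPM in metformin mutants. Every library with oxymetholone was above every library without, and metformin replicate 3 was the highest of the 6. The difference was 3.02 ± 0.42 on the log2 scale (SE), 8.11-fold, with an edgeR adjusted p of 0.0121, and 0.0548 without untreated replicate 3. The 4 wild-type libraries had 1.34, 1.89, 1.25 and 1.62 CPM. Of the 8 tested genes of its family, the membrane progestin and adiponectin receptors, 7 were higher, Paqr8 alone was called, and the median log2 difference was 0.26, and 0.44 without metformin replicate 3 and 0.13 with the filter on a mean of 1 CPM. Paqr7, which encodes membrane progestin receptor alpha, had a log2 difference of 0.40 ± 0.28.

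Of the steroid receptor genes described here, 5 were tested and none was called. All 5 had a log2 difference below 0, with a median of -0.09. The sign of Nr3c2, the mineralocorticoid receptor gene, turned in 3 of the alternatives. Nr3c1, the glucocorticoid receptor gene, was at a median of 51.4 CPM with oxymetholone and 64.1 CPM without, a log2 difference of -0.14 ± 0.17. Pgrmc2, a gene of the membrane progesterone receptor component family, had the smallest p of the list, at -0.32 ± 0.15.

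A list of known steroid receptor target genes lay higher with oxymetholone without any of its members being called. Of 23 tested members 20 were higher against 47.9% of all genes, the median log2 difference was 0.60, and 6 had an unadjusted p under 0.05. The level of the list in a library, the median over members of log2 CPM relative to the mean without oxymetholone, was 0.87, 0.19, 0.46, 1.16 and 0.78 in the oxymetholone libraries and 0.97, 0.27 and 0.19 in the combination libraries. It was 0.11, -0.10 and 0.11 in untreated and -0.29, 0.17 and -0.37 in metformin mutants. The 8 libraries did not overlap the 6, with the lowest at 0.19 and the highest of the others at 0.17. Centring on the mean of the 6 draws those libraries toward 0, so this narrow gap is not a test. The wild-type libraries stood at -0.12, 0.30, 0.92 and 0.34 and so spanned both. The list median stayed between 0.50 and 0.74 in all 24 alternatives run. Among the 47 gene lists drawn up, no other list with a level by library separated the arms.

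Fkbp5, a co-chaperone of steroid receptors that they induce, was at 24.7, 11.5, 34.5, 96.0 and 79.1 CPM in oxymetholone and 65.8, 26.3 and 21.9 CPM in combination libraries. It was at 13.6, 4.65 and 8.84 CPM in untreated and 7.63, 29.1 and 5.36 CPM in metformin libraries. The ranges overlap, and the log2 difference of 1.98 ± 0.56 had an edgeR adjusted p of 0.676. Cebpd, a transcription factor gene induced by glucocorticoids, was at a median of 17.1 CPM with oxymetholone (10.3 to 33.8) and 7.48 CPM without (5.09 to 11.4). Of the 8 libraries 2 fell into the range of the 6, and the log2 difference was 1.24 ± 0.30 with an adjusted p of 0.394. Igfbp1, which encodes a binding protein of insulin-like growth factors, had a log2 difference of 2.44 ± 0.69 and ranged from 15.6 to 284 CPM with oxymetholone and from 7.46 to 58.1 CPM without. Sult1e1, the oestrogen sulfotransferase gene, was at a median of 472 CPM with oxymetholone and 146 CPM without, a log2 difference of 1.68 ± 0.59.

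The called gene E230001N04Rik, a long noncoding RNA gene on chromosome 17, lies 2 places from Fkbp5 in the order of tested genes. It was at 0.51 to 2.23 CPM with oxymetholone (median 1.46) and at 0.0526 to 0.396 CPM without (median 0.198), without overlap. Its log2 difference was 2.65 ± 0.44 (edgeR adjusted p 0.0283, and 0.178 with the wild-type libraries added to the fit), and the call held in 4 of the 14 fits that leave out 1 library. In wild type E230001N04Rik was at 0.046, 0.107, 0.931 and 0.0385 CPM, so wild-type replicate 3 lay within the range with oxymetholone. AC154912.1, the gene between E230001N04Rik and Fkbp5, had a log2 difference of 0.39 ± 0.63. Srpk1 and Mapk14 on the other side were at 0.24 ± 0.23 and 0.30 ± 0.25.

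Wif1 encodes a secreted inhibitor that binds Wnt proteins. It was at 41.7, 44.0, 18.0, 16.3 and 37.6 CPM in the oxymetholone libraries and at 24.4, 14.3 and 9.57 CPM in the combination libraries. In untreated mutants it was at 0.213, 1.04 and 0.88 CPM and in metformin mutants at 3.32, 2.38 and 4.66 CPM. The 2 arms did not overlap, and within those without the drug every metformin library was above every untreated one. The log2 difference was 3.85 ± 0.66, with an edgeR adjusted p of 0.0381. That call was lost on leaving out any 1 of most libraries: it held in 3 of the 14 such fits, and adjusted p was 0.243 without untreated replicate 3. It was also lost with 3 surrogate variables in the model and with the filter on a mean of 1 CPM, while the log2 difference stayed between 3.37 and 4.25 in all 24 alternatives.

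Of 21 tested Wnt targets and inhibitors 13 were higher, with a median log2 difference of 0.29, and only Wif1 was called. The median was -0.06 in the libraries with metformin and 0.35 in those without, so its sign did not hold in both. Glul, the glutamine synthetase gene that Wnt signals keep on around the central vein of the liver, was at a median of 773 CPM with oxymetholone (548 to 956) and 414 CPM without (270 to 861). Its log2 difference was 0.77 ± 0.25, and the ranges overlapped through metformin replicate 3 at 861 CPM. In wild type Glul was at 496, 608, 835 and 996 CPM. Tsku, which encodes a secreted protein of the small leucine-rich family, had a log2 difference of 1.55 ± 0.48. It was 0.53 ± 0.55 in the libraries with metformin and 2.43 ± 0.55 in those without. The list median was 0.03 with metformin left out of the model, and 0.11 without untreated replicate 3, 0.12 without combination replicate 3, 0.13 without metformin replicate 1 and 0.15 without untreated replicate 2.

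Lncbate1 had the smallest p of all genes. It is a long noncoding RNA first described in mouse brown fat. Its level was 23.0, 25.7, 8.14, 11.6 and 11.5 CPM in oxymetholone and 21.1, 7.85 and 4.28 CPM in combination libraries. Without the drug it was 0.142, 0.109 and 0.440 CPM in untreated and 0.368, 0.0991 and 0.406 CPM in metformin libraries. The lowest library with oxymetholone held 154 counts and the highest without held 14. On the log2 scale the difference was 5.66 ± 0.55, 50.4-fold, with an edgeR adjusted p of 0.000657. The adipocyte list held 1 measured gene, which summed to 4.05 to 103 CPM with oxymetholone and 7.32 to 22.4 CPM without, and its part in the result was not tested. Lncbate1 overlaps Zfhx3, a transcription factor gene on the other strand, which had a log2 difference of 0.18 ± 0.52. The strand setting of the counting is not given in the sources used here.

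Rab38, a small GTPase that directs cargo to melanosomes and other lysosome-related organelles, was at 16.8, 17.4, 12.1, 13.2 and 13.8 CPM in oxymetholone and 12.5, 8.97 and 9.64 CPM in combination libraries. It was at 3.77, 2.30 and 2.68 CPM in untreated and 2.37, 2.64 and 0.724 CPM in metformin libraries. The 8 libraries with the drug lay close together and well above the 6 without. Between the arms the log2 difference was 2.38 ± 0.27, 5.19-fold, with an edgeR adjusted p of 0.00198. Of 19 tested genes of lysosome and melanosome trafficking 8 were higher, the median was -0.02, and Rab38 alone was called. Rab27a, another GTPase of the same transport, had a log2 difference of -1.65 ± 0.50, and Rab32, the closest relative of Rab38, one of -0.28 ± 0.18.

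Catsperd, which encodes a subunit of the calcium channel of sperm, was at 11.7, 15.5, 7.28, 15 and 12.3 CPM in oxymetholone and 9.71, 6.07 and 30.7 CPM in combination libraries. It was at 1.42, 1.91 and 3.15 CPM in untreated and 3.47, 1.65 and 1.77 CPM in metformin libraries. The 2 arms did not overlap, and combination replicate 3 stood above the rest. The log2 difference was 2.62 ± 0.38 (edgeR adjusted p 0.0121, and 0.0543 without untreated replicate 3).

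Of the other genes that rose, BB123696, Gm10032 and Gm10440 are annotated as long noncoding RNA genes, and Gm45187 as antisense. BB123696 was at 1.19 to 15.4 CPM with oxymetholone (median 4.52) and at 0.116 to 0.710 CPM without (median 0.215), a log2 difference of 4.60 ± 0.65. In wild type BB123696 was at 0, 0.285, 1.54 and 0.424 CPM, so wild-type replicate 3 lay within the range with oxymetholone. Gm10032 was at 0.776 to 9.09 CPM with oxymetholone and at 0.033 to 0.477 CPM without, a difference of 3.90 ± 0.56. The edgeR adjusted p of both was 0.0121, and 0.0501 without untreated replicate 3. Gm10440 was at 0.329 to 2.56 CPM with oxymetholone and at 0.029 to 0.328 CPM without, so that the nearest libraries of the 2 arms nearly touch. Its log2 difference was 3.24 ± 0.48 (edgeR adjusted p 0.0142), and the call was lost without untreated replicate 3 or 4.

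Gm45187 rests on few reads. It had 4 to 95 counts in the libraries with oxymetholone and 0 to 5 in those without, a log2 difference of 3.77 ± 0.64 (edgeR adjusted p 0.0331). The call held in 3 of the 14 fits that leave out 1 library, and adjusted p was 0.163 without untreated replicate 4. It lies antisense to Uvrag, a gene of endosomal traffic and autophagy, whose log2 difference was -0.06 ± 0.16.

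Xlr4c belongs to a family of near-identical X-linked lymphocyte regulated genes, so reads may be split among copies. It was at 7.89, 13.2, 1.05, 1.34 and 6.31 CPM in oxymetholone and 1.93, 1.17 and 1.72 CPM in combination libraries. It was at 0.071, 0.164 and 0.0734 CPM in untreated and 0.0526, 0.132 and 0.232 CPM in metformin libraries. The arms did not overlap, and 3 of the oxymetholone libraries stood above all others. The log2 difference was 4.65 ± 0.74 (edgeR adjusted p 0.0212, and 0.111 without untreated replicate 3). Xlr4b, a copy that was also tested, had a log2 difference of -0.42 ± 0.94.

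The 4 genes that fell were 2 pairs of neighbours. Tmem62, which encodes a transmembrane protein, and Ubr1 lie next to each other on chromosome 2 on opposite strands. Ubr1 encodes a ubiquitin ligase that marks proteins for breakdown by their first residue, the N-degron pathway. Their starts point away from each other, and their promoter windows are apart and do not overlap. The Tmem62 window is at chr2:120976812-120977111 on the plus strand and the Ubr1 window at chr2:120970666-120970965 on the minus strand of GRCm38.p6. Neither window holds the steroid receptor core site or its repeat. Both are shown 5′ to 3′ because the pair fell together. The capitals are reserved for that core site, so there are none.
Tmem62: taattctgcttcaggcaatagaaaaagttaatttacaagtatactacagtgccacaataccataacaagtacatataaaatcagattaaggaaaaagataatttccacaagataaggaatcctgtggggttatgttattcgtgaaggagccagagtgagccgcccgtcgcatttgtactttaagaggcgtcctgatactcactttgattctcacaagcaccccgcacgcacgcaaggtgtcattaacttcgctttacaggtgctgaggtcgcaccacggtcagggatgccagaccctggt
Ubr1: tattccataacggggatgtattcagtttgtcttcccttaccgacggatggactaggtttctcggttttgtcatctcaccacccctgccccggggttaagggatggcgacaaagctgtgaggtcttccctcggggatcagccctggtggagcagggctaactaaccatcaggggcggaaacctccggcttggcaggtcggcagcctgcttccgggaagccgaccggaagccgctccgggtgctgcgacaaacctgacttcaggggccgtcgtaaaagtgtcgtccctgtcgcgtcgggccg

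Tmem62 was at 3.72, 2.93, 4.52, 4.38 and 2.14 CPM in oxymetholone and 5.55, 6.53 and 7.03 CPM in combination libraries. It was at 24.3, 20.6 and 15.8 CPM in untreated and 15.4, 12.6 and 24.7 CPM in metformin libraries. Every library with oxymetholone was below every library without, and the combination libraries were above the 5 with oxymetholone alone. This gave a log2 difference of -2.06 ± 0.25 (edgeR adjusted p 0.00335), a level of 0.240 times that without the drug. Ubr1 was at 5.45, 5.23, 4.57, 3.25 and 2.60 CPM in oxymetholone and 5.10, 7.24 and 10.8 CPM in combination libraries. It was at 12.2, 17.0 and 18.6 CPM in untreated and 18.1, 15.9 and 14.1 CPM in metformin libraries, and the arms did not overlap. Its log2 difference was -1.54 ± 0.24 (edgeR adjusted p 0.0209), which held in 7 of the 14 fits without 1 library and reached 0.0869 without untreated replicate 4. In wild type Tmem62 was at 17.4, 15.6, 17 and 14 CPM and Ubr1 at 17.4, 15.8, 14.3 and 15.8 CPM.

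The genes on either side of that pair had differences near 0. Ttbk2, next to Ubr1, had a log2 difference of 0.01 ± 0.22 and Ccndbp1, next to Tmem62, one of 0.03 ± 0.12. Of 11 tested N-degron pathway genes 5 were higher and only Ubr1 was called. Its relatives Ubr2 and Ubr4 were at 0.13 ± 0.24 and 0.25 ± 0.40.

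Tcf24, which encodes a transcription factor of the basic helix-loop-helix family, and Ppp1r42, which encodes a regulatory subunit of protein phosphatase 1, are neighbours on the minus strand of chromosome 1. Tcf24 was at 0.36, 0.185, 0.19, 0.243 and 0.0813 CPM in oxymetholone and 0.347, 0.204 and 0.823 CPM in combination libraries. It was at 2.34, 14.4 and 5.32 CPM in untreated and 3.26, 0.594 and 9.24 CPM in metformin libraries. The arms overlap only through combination replicate 3 and metformin replicate 3. Here the log2 difference was -4.24 ± 0.65 (edgeR adjusted p 0.0168), and the call held in 8 of the 14 fits without 1 library, with 0.0557 without combination replicate 1. In wild type Tcf24 was at 10.5, 0.32, 1.11 and 7.13 CPM, so untreated livers of that genotype held levels from both ranges.

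Ppp1r42 had 1 to 11 counts in libraries with oxymetholone and 4 to 77 in those without. Its log2 difference was -3.65 ± 0.59 (edgeR adjusted p 0.0252), and the call held in 4 of the 14 fits without 1 library, with 0.0869 without untreated replicate 4. Cops5, which follows Ppp1r42, was at -0.06 ± 0.19, and Snhg6, before Tcf24, at -0.32 ± 0.38. Around the 15 called genes, 78 uncalled genes lay within 3 places, and 2 of them had an unadjusted p under 0.05, against 3.84% of all genes. They were Fkbp5 and Gm48199, 3 places from BB123696, at 1.47 ± 0.62.

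**Figure D2:**
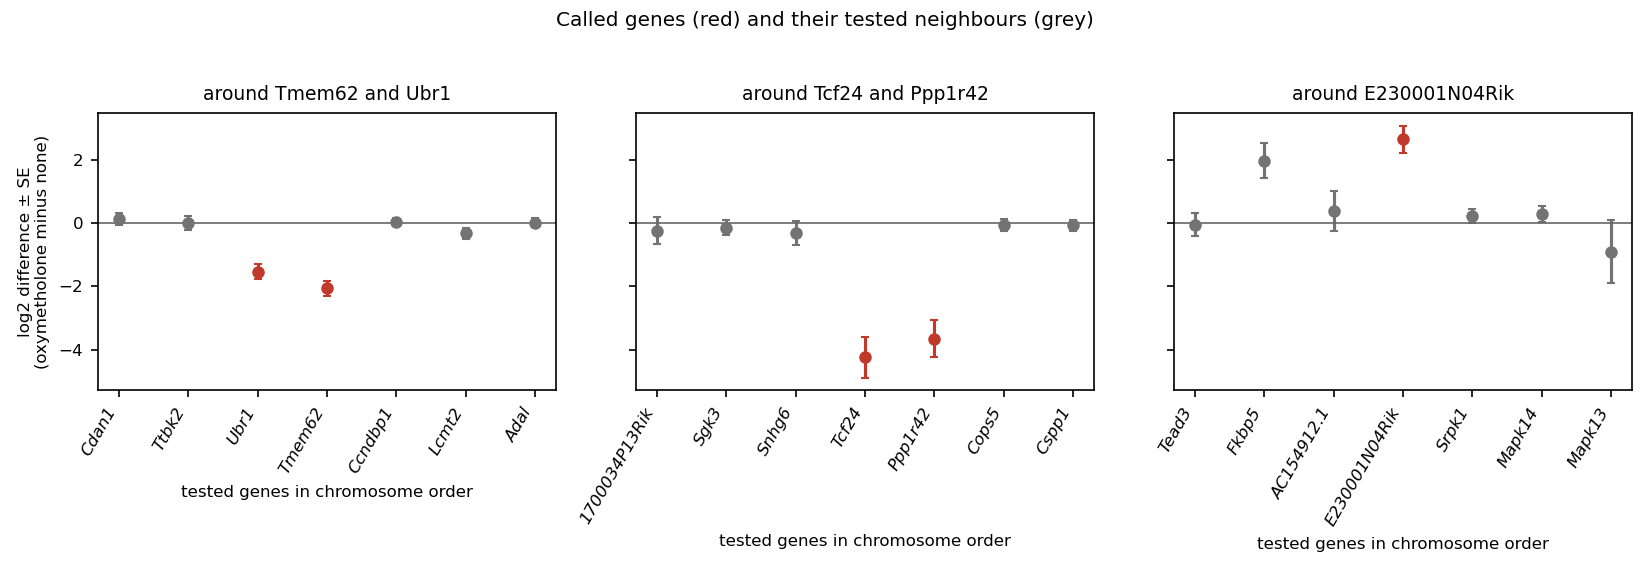
Log2 differences (oxymetholone minus none, ± SE derived from edgeR's F statistic) of called genes in red and their tested neighbours in grey, in chromosome order. Ubr1 at -1.54 and Tmem62 at -2.06, and Tcf24 at -4.24 and Ppp1r42 at -3.65, are adjacent pairs between genes near 0, and Fkbp5 at 1.98 lies 2 places from E230001N04Rik.

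Among the genes next in p after the threshold were Tenm3, Cyp2a4, Smim1 and Hebp2, with edgeR adjusted p from 0.108 to 0.122. Cyp2a4 encodes a cytochrome P450 that hydroxylates testosterone and is higher in livers of female mice. It was at 281, 967, 257, 122 and 1492 CPM in oxymetholone and 164, 632 and 852 CPM in combination libraries. It was at 14.2, 20.8 and 33.2 CPM in untreated and 49.3, 8.42 and 120 CPM in metformin libraries. The arms did not overlap, though the lowest with the drug, 122 CPM, was close to metformin replicate 4 at 120 CPM. The arms differed on the log2 scale by 4.06 ± 0.78, with an adjusted p of 0.108. Its near-identical relative Cyp2a5, which hydroxylates coumarin and nicotine, lies 2 places away in the order of tested genes. Cyp2a5 was at a median of 1124 CPM with oxymetholone (423 to 5335) and 220 CPM without (70.3 to 1246), a log2 difference of 2.58 ± 0.78. Reads of the pair may be shared. Of the 4 tested Cyp2a genes 3 were higher, and Cyp2a12, at -0.09 ± 0.21, was not.

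Tenm3, a cell adhesion gene of the teneurin family, was at 0.927 to 2.19 CPM with oxymetholone and at 2.20 to 6.60 CPM without, a log2 difference of -1.36 ± 0.26. Smim1, whose human counterpart carries the Vel blood group antigen, was at 5.94 to 27.9 CPM with oxymetholone and 0.695 to 5.69 CPM without, a difference of 2.49 ± 0.48. Both separated the arms without reaching the threshold. Hebp2, a haem-binding protein gene, overlapped between the arms at 2.90 ± 0.58.

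Because metformin was given in both arms, the oxymetholone difference can be taken in 2 sets of libraries that share none. The combination against metformin alone, 3 libraries each, gave 0 genes by edgeR (0% called), with a smallest adjusted p of 0.159 and 342 genes at an unadjusted p under 0.05. There DESeq2 gave 10 genes and limma-voom 1. Oxymetholone against untreated mutants, 5 libraries against 3, gave 5 genes by edgeR (0.0328% called), with 563 at an unadjusted p under 0.05. These were Tmem62, Wif1, Paqr8, Ubr1 and Lncbate1. All 5 had the same sign in the combination against metformin, and all 5 had an unadjusted p under 0.05 there.

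The direction carried over for the leading genes and not for the table as a whole. Of the 50 genes with the smallest p without metformin, 44 had the same sign with it, or 88%, and 21 of them reached an unadjusted p under 0.05. Of all 15225 genes 6560 had the same sign in both, or 43.1%. Among those 6560, 218 reached an unadjusted edgeR p under 0.05 with metformin. Across all genes, which are not independent replicates, the log2 differences of the 2 sets had a Pearson r of 0.15 and a Spearman rho of -0.07. The sets share 1 estimate of spread from the fit over 14 libraries.

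The size of the difference was similar in the 2 sets for some genes and not for others. Rab38 was at 2.44 ± 0.40 with metformin and 2.32 ± 0.38 without, E230001N04Rik at 2.64 ± 0.66 with and 2.66 ± 0.62 without, and Catsperd at 2.77 ± 0.57 with and 2.51 ± 0.54 without. Wif1 was at 2.21 ± 0.54 with metformin and 5.49 ± 0.62 without, a gap of -3.28 ± 0.75 for the interaction. Paqr8 was at 1.93 ± 0.40 with metformin and 4.0 ± 0.42 without, a gap of -2.06 ± 0.54, and Tmem62 was at -1.47 ± 0.33 with and -2.52 ± 0.29 without. No interaction passed the test: edgeR called 0 genes (0% called), with a smallest adjusted p of 0.926 and 285 genes under an unadjusted p of 0.05. With limma-voom the interaction gave 0 genes and with DESeq2 3, which are named after their values were seen: Selenbp2, a selenium-binding protein gene (-6.68 ± 1.19), Slc22a26, an organic anion transporter gene (6.14 ± 1.15), and a gene with no symbol. None of the 15 called genes was among them, with Wif1 at a DESeq2 adjusted p of 0.0667 and Paqr8 at 0.369. By these 3 tools a difference between the sets is not shown for any of the 15 genes, nor is its absence.

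**Figure D3:**
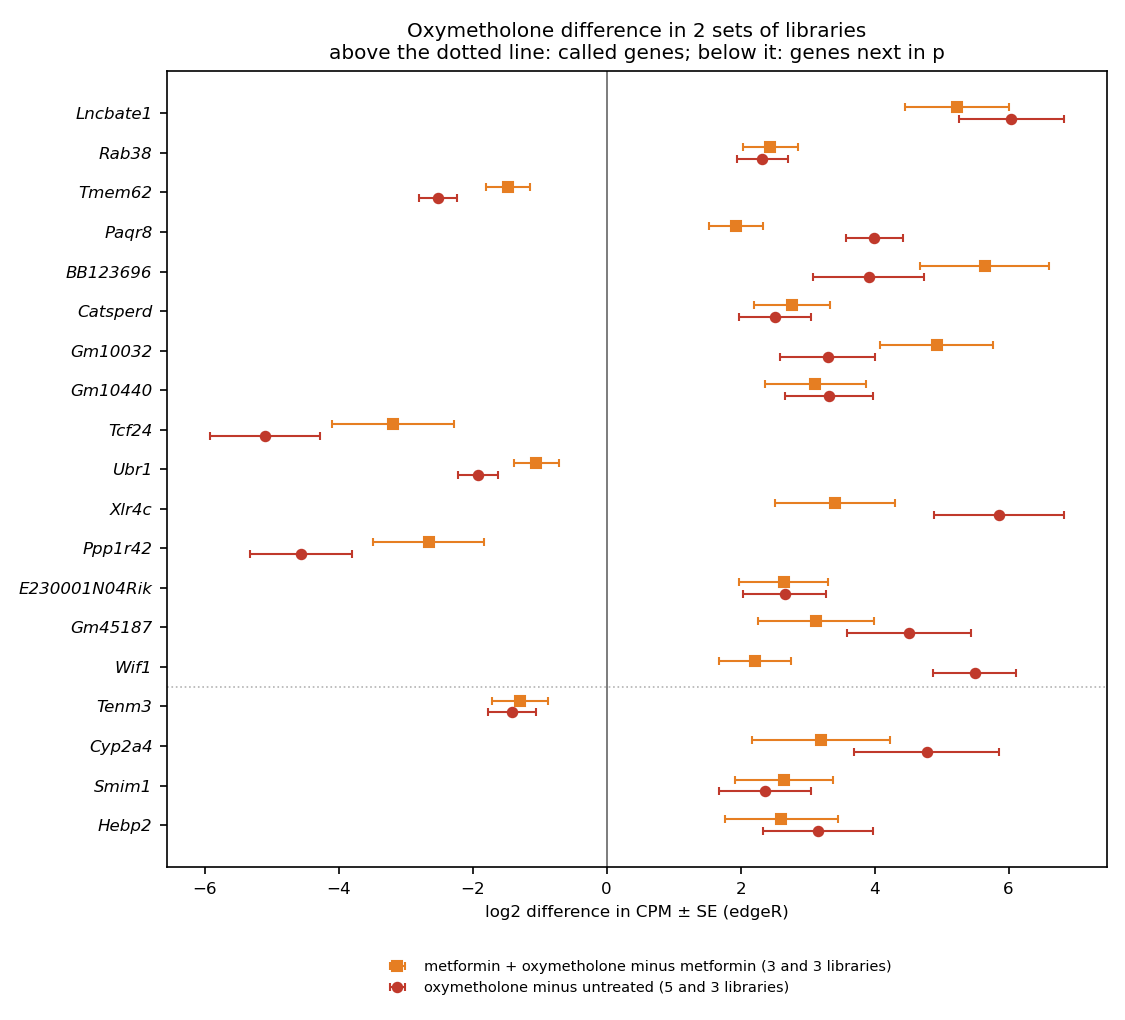
Log2 differences ± SE derived from edgeR's F statistic for the called genes (above the dotted line) and genes next in p (below it). Squares are the combination minus metformin (3 and 3 libraries) and circles oxymetholone minus untreated (5 and 3). Every gene lies on the same side of 0 in both sets, with the widest gap in Wif1, at 2.21 with metformin and 5.49 without.

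The authors' deposited table lists 47 genes with an adjusted p under 0.05 for oxymetholone against untreated mutants, and 8 of them are among the 15 called here. For the combination against metformin the authors' deposited table lists 0, with a smallest adjusted p of 0.198.

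Among gene lists, the count of members called is a count of single genes: no list other than those of Paqr8, Wif1, Rab38 and Ubr1 held a called gene. Medians and counts are given beside those of all genes, which had a median of -0.01 and 47.9% higher. Members of a list are not independent of each other, so a one-sided count is not a test. Interferon-induced genes, the antiviral set, were higher in 35 of 35 tested members, with a median log2 difference of 0.73 and 13 at an unadjusted p under 0.05. Usp18, an interferon feedback gene, was at a median of 16 CPM with oxymetholone (6.89 to 33.4) and 2.64 CPM without (1.89 to 15.2), a difference of 1.98 ± 0.58. Irf7, a transcription factor of the same response, was at 1.58 ± 0.47. The level of the list was 0.16, 0.76, 0.06, 1.11 and 1.59 in oxymetholone and 0.36, -0.08 and 1.80 in combination libraries. It was 0.33, -0.16 and -0.09 in untreated and -0.67, -0.33 and 1.09 in metformin libraries. The arms overlapped widely, and the median was 0.40 without combination replicate 3 and 1.08 without metformin replicate 4. All 5 tested T and NK cell markers were higher, and the 6 measured ones summed to 1.07 to 12.4 CPM with oxymetholone and 1.53 to 8.46 CPM without. Of 8 macrophage markers 6 were higher, and the 8 summed to 65.6 to 500 CPM with and 81.4 to 271 CPM without. The part of these cell types in the interferon values was not tested.

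Cell division genes showed the same dependence on single libraries. Of 32 tested members 30 were higher with a median of 0.76, which was 0.20 without combination replicate 3. That library was at 2.05 on the list level, and metformin replicate 4, at 1.5, was the highest of those without oxymetholone. The list median was 0.33 in the libraries with metformin and 1.17 in those without. Cdk1, the kinase that starts mitosis, was at a median of 3.91 CPM with oxymetholone (1.0 to 19.6) and 1.54 CPM without (1.24 to 6.81).

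**Figure D4:**
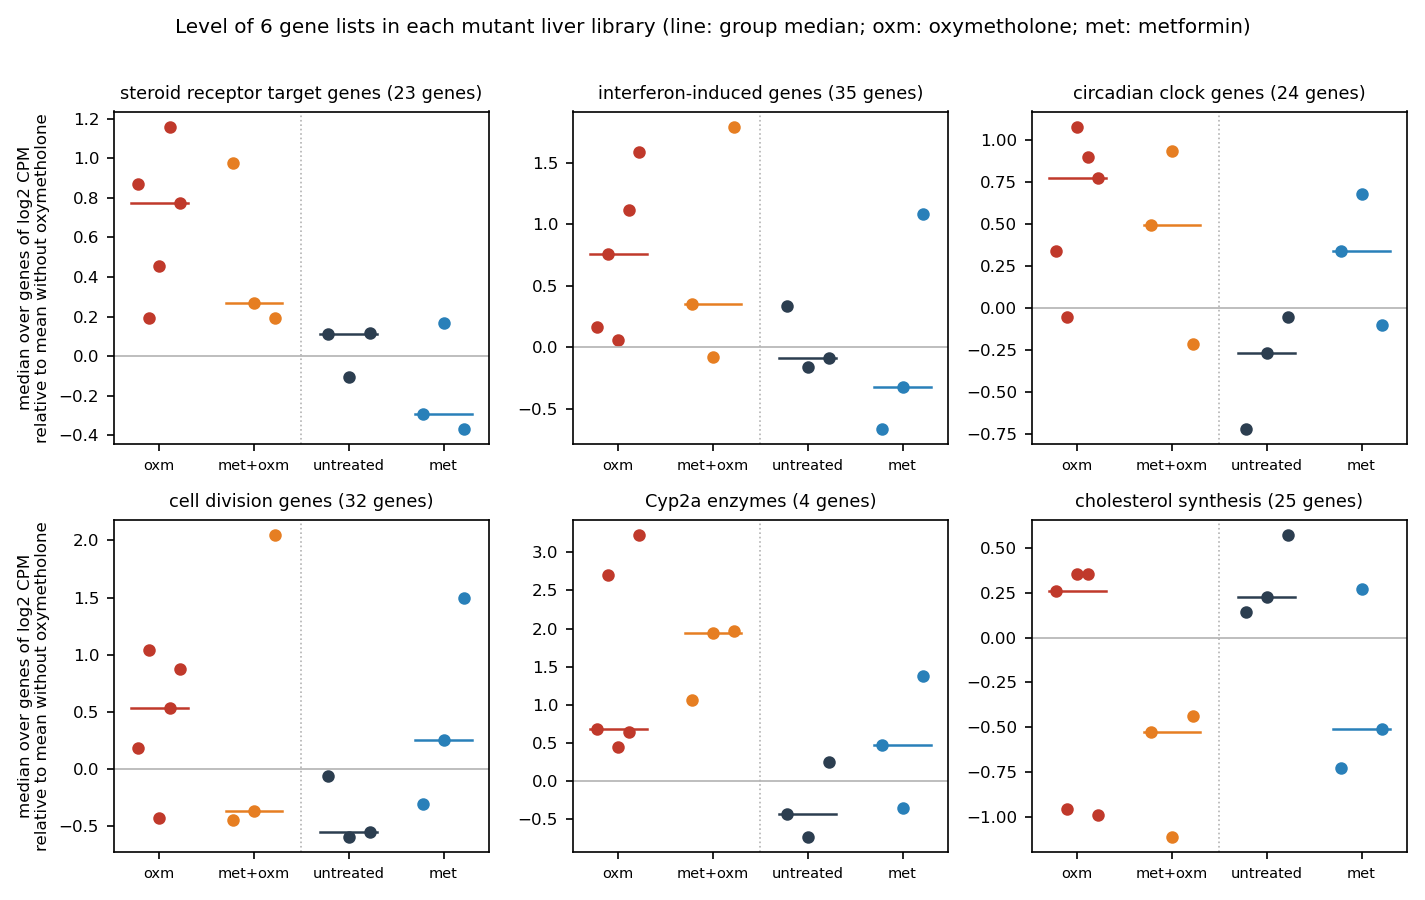
Level of 6 gene lists in each mutant library, as the median over genes of log2 CPM relative to the mean of the 6 libraries without oxymetholone, with a line at each group's median. Steroid receptor targets do not overlap between libraries with oxymetholone (0.19 to 1.16) and without (-0.37 to 0.17), while the interferon, clock, cell division, Cyp2a and cholesterol lists do. The 6 lists were picked from 47, and the gap between 0.17 and 0.19 is narrow.

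Circadian clock genes were higher in 18 of 24 tested members with a median of 0.45, and 6 had an unadjusted p under 0.05. The median was 0.14 in the libraries with metformin and 1.01 in those without. Usp2, a rhythmic deubiquitinase gene, was at 6.57, 3.82, 50.6, 23.0 and 46.8 CPM in oxymetholone and 12.2, 38.1 and 2.61 CPM in combination libraries. It was at 0.888, 1.75 and 2.13 CPM in untreated and 7.32, 6.60 and 5.07 CPM in metformin libraries, a log2 difference of 2.81 ± 0.80 with overlap. Ciart, a clock repressor gene, was at 2.49 ± 0.72. The list also holds Per1, which stands on the steroid receptor list too. The labels give no time of day for the collection, so its part was not tested.

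Stress and lipid lists moved by smaller amounts. Genes of the integrated stress response were higher in 21 of 24 members (median 0.33, and 0.51 without metformin replicate 3). Among them Ddit3, which encodes the transcription factor CHOP, was at 4.25, 8.19, 3.95, 7.38 and 6.85 CPM in oxymetholone and 6.74, 9.28 and 8.06 CPM in combination libraries. It was at 3.73, 2.52 and 3.63 CPM in untreated and 3.68, 2.61 and 4.93 CPM in metformin libraries. Only metformin replicate 4 reached into the range with the drug, and the log2 difference of 0.98 ± 0.23 had an edgeR adjusted p of 0.335. Targets of NRF2, the oxidative stress factor, were higher in 27 of 34 (median 0.30, and 0.17 without oxymetholone replicate 5). Their median was 0.10 in the libraries with metformin and 0.55 in those without. Targets of PPAR-alpha, the fatty acid oxidation factor, were higher in 29 of 34 (median 0.30), and targets of CAR and PXR, the drug-sensing receptors, in 21 of 32 (median 0.33). Alas1, the first enzyme of haem synthesis and a CAR target, was at a median of 284 CPM with oxymetholone (66.9 to 745) and 58.8 CPM without (26.0 to 423), a difference of 1.84 ± 0.71.

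Genes of cholesterol synthesis were lower in 23 of 25 members, with a median of -0.34. The median was -0.23 without oxymetholone replicate 2 and -0.21 without metformin replicate 3. Sc5d, which acts near the end of that pathway, was at a median of 225 CPM with oxymetholone (148 to 478) and 376 CPM without (298 to 683), a difference of -0.75 ± 0.26. The list level overlapped between the arms, at -1.11 to 0.35 with oxymetholone and -0.73 to 0.57 without. Bile acid genes were lower in 18 of 27 (median -0.17, and -0.0236, -0.0333 and -0.0954 without combination replicate 3, untreated replicate 3 and metformin replicate 3), with Abcb11, the bile salt export pump, at -0.63 ± 0.28. All 8 tested bile duct markers were lower, with a median of -0.82. The 9 measured ones summed to 51.2 to 684 CPM with oxymetholone and 40.1 to 1478 CPM without. The level of that list overlapped between the arms, at -1.37 to 2.05 with oxymetholone and -1.84 to 3.58 without. Untreated replicates 3 and 4 and metformin replicate 1, at -1.39, -1.15 and -1.84, lay below the median with oxymetholone, -1.14. The highest without it was metformin replicate 3, so the markers followed single libraries. In bulk tissue fewer cells of a type and less RNA per cell cannot be told apart.

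Sex-biased liver genes did not move as a block. Male-biased genes were higher in 15 of 29, with a median of 0.01, which was -0.54 in the libraries with metformin and 0.40 in those without. Without combination replicate 3, which stood at -3.35 on the list level, the median was 0.28. Mup20, a major urinary protein gene of male liver, was at 5319, 9584, 899, 1119 and 4452 CPM in oxymetholone and 2001, 5938 and 912 CPM in combination libraries. It was at 578, 808 and 397 CPM in untreated and 922, 544 and 1245 CPM in metformin libraries, a difference of 2.32 ± 0.61 with overlap. Female-biased genes were higher in 17 of 26, with a median of 0.73. That median was 1.39 in the libraries with metformin and 0.05 in those without. Without combination replicate 3, which stood at 1.72 on this list level, it was 0.01. It was 0.33 without metformin replicate 4 and 0.48 without oxymetholone replicate 5. Trim24, a female-biased gene that encodes a cofactor of nuclear receptors, was at 1.40 ± 0.36. Cyp2c40, of the same list, was at -1.68 ± 0.47. Serpina1e, a male-biased antitrypsin gene, was at 14474 CPM in oxymetholone replicate 3, while the other mutant libraries held between 17.4 and 67.0 CPM.

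Enzymes that make and clear steroids were split between the directions. Of 25 steroid metabolism genes 12 were higher (median -0.05), and of 16 UDP-glucuronosyltransferases 7 (median -0.01). Genes tied to the disease or to blood formation were split as well. Fanconi anaemia pathway genes were higher in 14 of 25 (median 0.02), p53 targets in 17 of 27 (median 0.12, and -0.03 without combination replicate 3), iron and hepcidin genes in 11 of 22 (median 0.02) and blood cell growth factors in 6 of 12 (median 0.04). Epor, the erythropoietin receptor gene, was at 0.61 ± 0.29, and Brca1 at 0.75 ± 0.44. Growth hormone and IGF genes were higher in 8 of 19 (median -0.07), with Bcl6, a repressor under growth hormone control, at -1.54 ± 0.52. Genes of fatty acid synthesis were higher in 13 of 21 (median 0.03).

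**Figure D5:**
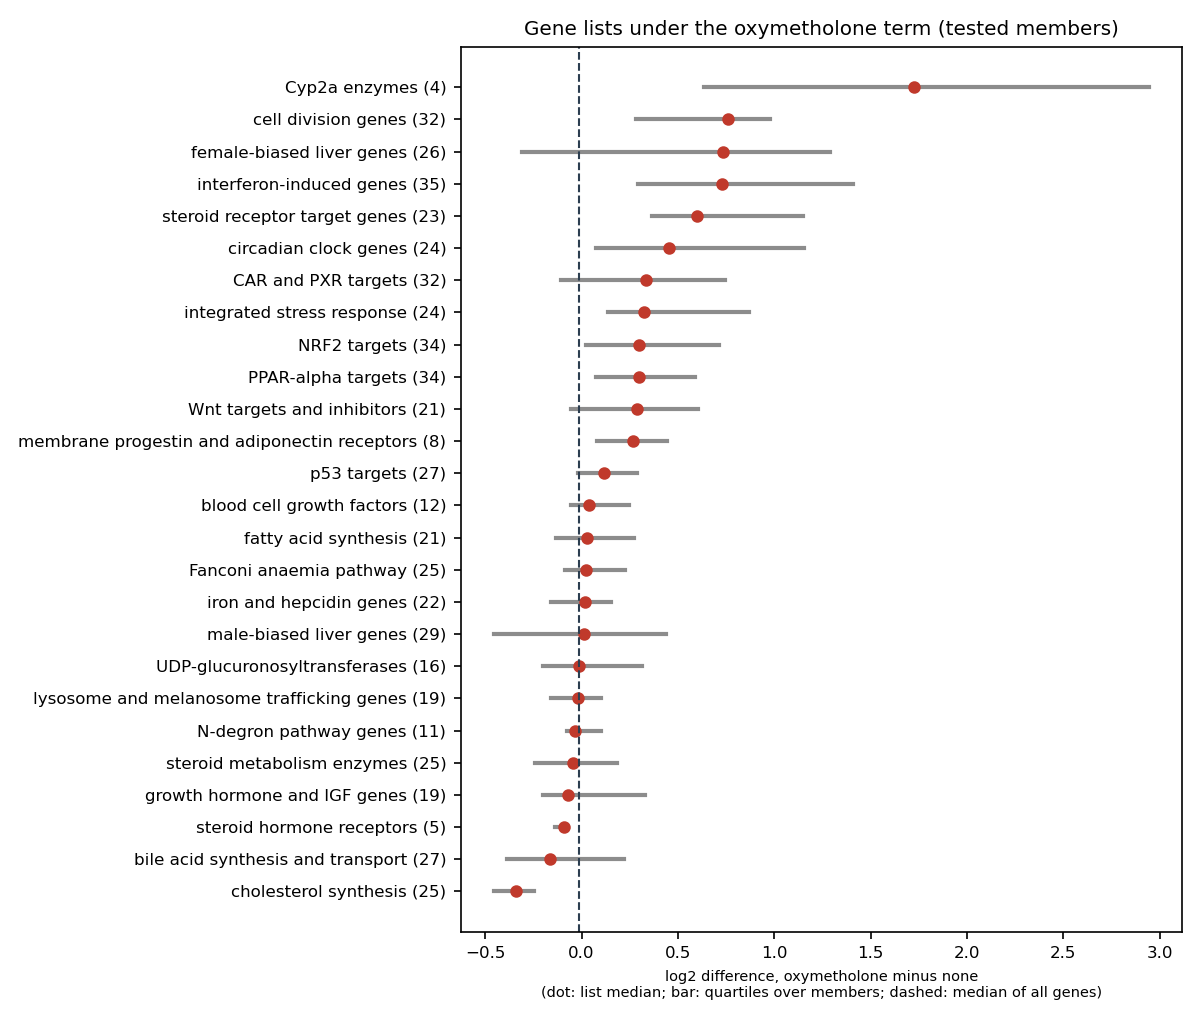
Median log2 difference (dot) and quartiles over members (bar) of 26 pathway gene lists described in the text for the oxymetholone term, with the number of tested members in brackets and a dashed line at the median of all genes, -0.01. Of the lists drawn, Cyp2a enzymes, with 4 genes, lie farthest to the right and cholesterol synthesis, at -0.34, farthest to the left, and other lists, those of cell type markers among them, are not drawn.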

How the data were processed

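Liver RNA of male mice was extracted on columns and sequenced by a service, per the labels' protocols. The submitters' processing notes name GRCm39 as the build. Not given in the sources used here are the aligner, the counting program, its annotation and its strand setting. The authors deposited 1 table of 16115 genes with raw counts per library, a CPM signal, log2 residuals and fold changes, and p-values, per the file headers. The CPM printed here equal the deposited signal, to a relative difference of at most 4.97e-15, and are counts over the TMM-scaled library size of all 18 libraries.

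From the counts of the 14 mutant libraries, edgeR 4.0.16 in R 4.3.3 was used with TMM, filterByExpr (890 genes removed, 15225 tested), a robust quasi-likelihood fit of 2 additive terms (11 residual degrees of freedom) and Benjamini-Hochberg adjustment over all genes tested at 0.05. The common dispersion came to 0.195, which is a biological coefficient of variation of 0.4416. Log2 CPM used a prior count of 2. The edgeR test gives no SE, so each SE printed with an edgeR difference is the absolute log2 difference over the square root of the F statistic. Such SEs are approximate, and those of the 2 metformin sets need not combine to that of the interaction. Differences without and with metformin and their interaction came from 1 coefficient per group over the same libraries. Depth was 20.2 to 32.7 M counts per library, and counts under about 10 per library carry wide error. Limma 3.58.1 (voom), DESeq2 1.42.0, sva 3.50.0, other filters, scalings and models, and leaving out libraries were alternatives.

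Named were every called gene, the next 5 in p, and up to 4 members with the smallest p of each list described, leaving out some genes that are not reported here. The comparison, its members and the gene lists were chosen with earlier results of these data known, so that the lists of Paqr8, Wif1, Rab38 and Ubr1 are no independent support for those genes. The other lists, those of steroid receptor targets and Cyp2a enzymes among them, are no independent support either. Promoters are from RefSeq (GRCm38.p6) and gene order from GENCODE on GRCm38, which were not mixed with the build of the counts. Replicate numbers follow the order of the sample records.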

Additional observations from a re-analysis of the deposited data

Results flagged for a closer look

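Of 66 sets of 6 or 8 libraries checked for 1 library far from the others, 15 had such a library, where chance gives about 5 in 100. Among named genes, Paqr8 was at 4.92 CPM in metformin replicate 3, far above the other libraries without oxymetholone. BB123696 was at 0.71 CPM in untreated replicate 2 and Cyp2a4 at 120 CPM in metformin replicate 4, each the highest without the drug. Catsperd, at 30.7 CPM, and Tcf24, at 0.823 CPM, were highest in combination replicate 3 among libraries with oxymetholone. The mitochondrial share was 8.19% in oxymetholone replicate 3.

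Marker genes of other cell types set single libraries apart as well. Combination replicate 3 stood out in B and plasma cell markers (133 CPM in sum), in the adipocyte marker (103 CPM) and in fetal and tumour genes (82.5 CPM). Oxymetholone replicate 4 stood out in neutrophil markers (68.0 CPM). Of the libraries without oxymetholone, metformin replicate 3 stood out in stellate and fibroblast markers (606 CPM) and in the 1 muscle gene measured (75.5 CPM). Metformin replicate 4 stood out in T and NK cell markers (8.46 CPM) and fetal and tumour genes (301 CPM), and untreated replicate 3 in red cell markers (3830 CPM).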

How the results depend on the processing

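The 15 calls of the oxymetholone term (11 higher, 4 lower) became 63 with DESeq2 (52 higher, 11 lower), 33 with limma-voom (25 higher, 8 lower) and 40 with 3 surrogate variables (26 higher, 14 lower). With a mean CPM of at least 1, 7 genes were called higher. Without metformin replicate 3 and combination replicate 3 together, 7 were called lower. Leaving out 1 library gave 3 to 17 calls, 2 to 12 higher and 1 to 6 lower, and the 3 were without untreated replicate 3. Oxymetholone against untreated gave 5 calls, but 63 with DESeq2, 13 with limma-voom, 12 without those 2 libraries together and 3 to 11 without 1 library. The combination against metformin gave 0, but 10 with DESeq2, 1 with limma-voom and 0 to 2 without 1 library. The interaction gave 0, but 3 with DESeq2 and 0 without any 1 library. Lncbate1, Rab38 and Tmem62 were called in all 24 alternatives. Of the values for named genes, 2494 kept direction and side of the threshold, 71 lost a call, 29 gained one and 7 changed sign. These were Nr3c2 (0.0323 with 3 surrogate variables, 0.0572 without metformin replicate 3 and combination replicate 3 together), Cyp2a12 (0.0581 without both libraries) and values without 1 library. Over those without 1 library, Nr3c2 was at -0.18 to 0.0152, Cyp2a12 at -0.19 to 0.0412, Mlph at -1.22 to 0.15 and Ubr4 at -0.0618 to 0.53. The cause was not tested. Of the list medians 623 moved by less than the SD between libraries of a group in the list's mean log2 CPM, and 1 by more. That SD is not an error of the median, so these counts do not show that the medians were stable. The female-biased median of 0.73 was -0.02 with limma-voom, and the p53 median of 0.12 was -0.04 with 3 surrogate variables. No paired analysis was possible because the labels carry no replicate numbers.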
